A study of Mus musculus with 48 samples.

Results

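The transcription factors through which the circadian clock passes its timing to other genes were examined in subcutaneous (inguinal) white adipose tissue of mice under 2 feeding patterns. The 8 genes were taken by name from the table of read counts: Dbp, Tef, Hlf, Nfil3, Bhlhe40, Bhlhe41, Ciart and Rora, of 54532 genes listed. Each name had 1 row, and all 8 were among the 19977 genes that passed the filter on low counts. The samples were iWAT of C57BL/6 mice, 8 months old, fed ad-lib or twice-a-night (TAN), which offers food in 2 timed meals at night. Each diet was sampled at 8 AM, 12 PM, 4 PM, 8 PM, 12 AM and 4 AM, with 4 libraries per diet and time, 12 groups and 48 libraries in all. The deposited description speaks of a stromal vascular fraction, whereas the study's methods speak of the whole depot. Adipocyte markers were abundant in all 48 libraries: the 10 genes of that list, among them Adipoq and Plin1, summed to 8830 to 67900 CPM (counts scaled to library size), and no marker of the list was at 0 in any library.

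In the core of the clock, CLOCK and BMAL1 (encoded by Arntl) activate genes through the E-box, and the PER and CRY proteins they induce shut them off again. Dbp, Tef and Hlf encode the PAR bZIP factors, activators that bind D-box elements, and Nfil3 encodes a bZIP repressor that competes for the same elements. Bhlhe40 and Bhlhe41 (Dec1 and Dec2) and Ciart (Chrono) encode repressors of CLOCK and BMAL1 activity, and Rora encodes a nuclear receptor that activates Arntl through ROR elements, opposite to the REV-ERB receptors. In adipose tissue such factors are known for daily rhythms in lipid metabolism.

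The letters before the gene starts are shown because several of these genes moved together over the day. The 250 bases upstream of each RefSeq start were taken from GRCm38.p6, and CACGTG (E-box), CACGTT (a variant E-box), TTANGTAA (D-box) and AGGTCA (the core letters of elements bound by ROR and REV-ERB receptors) were searched on both strands. CACGTG was in 6.02% of the 32851 windows of all genes, CACGTT in 3.85%, TTANGTAA in 2.06% and AGGTCA in 14% of them. The window of Ciart held 3 copies of CACGTG, and 3 or more copies were in 0.0609% of all windows. CACGTG occurred 1 time in the window of Bhlhe41 and 1 time before each of the 2 listed starts of Tef. None of the 4 motifs was in the windows of Dbp, Hlf and Rora, and that of Nfil3 held 1 AGGTCA, read on the opposite strand. RefSeq windows were matched for 7 of the 8 genes, all but Bhlhe40. By the gene coordinates that came with the counts, both Tef windows lay inside the gene. Those of Dbp, Nfil3, Bhlhe41 and Ciart lay partly inside theirs, and so did the AGGTCA of Nfil3. Capitals mark the matches, which describe the letters only.
Ciart (chr3:95882229-95882478, minus strand): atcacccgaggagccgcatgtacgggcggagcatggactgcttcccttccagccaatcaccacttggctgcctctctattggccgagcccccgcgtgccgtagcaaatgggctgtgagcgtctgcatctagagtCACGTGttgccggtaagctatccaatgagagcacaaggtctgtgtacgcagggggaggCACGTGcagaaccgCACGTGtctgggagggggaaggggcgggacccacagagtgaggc
Bhlhe41 (chr6:145865421-145865670, minus strand): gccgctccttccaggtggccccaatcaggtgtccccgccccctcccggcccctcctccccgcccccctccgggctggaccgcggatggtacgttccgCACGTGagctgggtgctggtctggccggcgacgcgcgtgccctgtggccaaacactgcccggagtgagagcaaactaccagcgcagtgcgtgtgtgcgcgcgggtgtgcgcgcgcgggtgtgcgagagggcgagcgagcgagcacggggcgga
Tef, first start (chr15:81802423-81802672, plus strand): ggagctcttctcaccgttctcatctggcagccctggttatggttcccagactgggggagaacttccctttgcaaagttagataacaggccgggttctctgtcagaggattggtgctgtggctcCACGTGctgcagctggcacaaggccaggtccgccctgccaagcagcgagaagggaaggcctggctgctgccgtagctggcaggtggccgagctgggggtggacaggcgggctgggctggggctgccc
Tef, second start (chr15:81811164-81811413, plus strand): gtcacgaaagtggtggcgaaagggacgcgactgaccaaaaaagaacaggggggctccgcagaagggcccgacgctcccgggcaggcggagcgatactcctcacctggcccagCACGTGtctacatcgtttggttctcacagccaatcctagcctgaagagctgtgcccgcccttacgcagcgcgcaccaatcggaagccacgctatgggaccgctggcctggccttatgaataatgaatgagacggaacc
Dbp (chr7:45704997-45705246, plus strand): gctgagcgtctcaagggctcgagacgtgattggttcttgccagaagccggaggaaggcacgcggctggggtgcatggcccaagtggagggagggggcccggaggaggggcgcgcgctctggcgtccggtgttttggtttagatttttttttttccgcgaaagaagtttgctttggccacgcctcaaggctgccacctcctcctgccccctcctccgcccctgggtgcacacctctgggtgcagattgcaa
Nfil3 (chr13:52981040-52981289, minus strand): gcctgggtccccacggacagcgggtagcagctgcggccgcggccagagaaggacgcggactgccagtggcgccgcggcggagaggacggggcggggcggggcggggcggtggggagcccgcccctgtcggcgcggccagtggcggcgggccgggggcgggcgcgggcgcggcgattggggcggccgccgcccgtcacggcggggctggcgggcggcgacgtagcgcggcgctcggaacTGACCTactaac

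Libraries that stand apart are described before the results. Totals ranged from 15636378 to 29913310 counts over the 48 libraries. Ad-lib replicate 1 at 4 AM was unlike the 3 other libraries of its group for several clock outputs: Dbp was at 69.1 CPM against 10.3 to 16.8, Ciart at 6.49 against 0 to 0.544 and Nfil3 at 1.67 against 15.5 to 18 CPM. At 4 PM the ad-lib libraries were at 85.8 to 127 CPM for Dbp, 5.2 to 8.96 for Ciart and 2.31 to 3.99 for Nfil3. Several tests, amplitudes and mean effects are given with and without this library. The summed CPM of 10 lymphocyte markers ranged from 8.06 to 2040, and that of 10 skeletal muscle markers (9 passed the filter) from 28.5 to 6960, the highest being ad-lib replicate 3 at 4 AM. Muscle markers such as Tnnc2 and Myh1 were at 0 in 46 and 26 libraries. In bulk samples, fewer cells of a type and less RNA per cell cannot be told apart.

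The clock times also carry a doubt. Over 979 genes, all 48 libraries of the count table matched the column of the same animal name but a time label 12 h apart in the expression table that accompanies the study, and 0 matched the same time. Times are given here as the count table labels them, and every peak hour would move by 12 h under the other labels. Which diet and which libraries form a group is the same under both.

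Per kilobase of gene length, levels differed widely among the 8 genes. In the 24 ad-lib libraries the median level was highest for Tef, at 22.3 CPM per kb (range 8.83 to 39.1). It was 10.2 (2.67 to 41.7) for Bhlhe40, 8.18 (0.679 to 42.5) for Dbp and 6.34 (0.825 to 13.8) for Nfil3. Rora followed at 5.28 (2.6 to 8.29), Hlf at 4.69 (1.79 to 8.65), Bhlhe41 at 2.48 (0.754 to 7.38) and Ciart at 0.411 CPM per kb (0 to 3.96). The ranges of each pair of neighbours in this order overlapped. In TAN the order of the medians was Tef (16.4), Bhlhe40 (12.7), Dbp (10.5), Nfil3 (6.09), Rora (5.34), Hlf (3.86), Bhlhe41 (2.4) and Ciart (0.526 CPM per kb).

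Over the day, 7 of the 8 genes were called for a 24-h rhythm in TAN and 2 of 8 in ad-lib. A gene was called when edgeR gave an adjusted p under 0.05. Among all genes tested, 19.8% were called for a 24-h rhythm in TAN and 0.0801% in ad-lib. All but Rora passed in TAN, and Dbp and Nfil3 passed in ad-lib. An unadjusted p under 0.05 was given by edgeR for 7 of the 8 in TAN and 5 in ad-lib. Of all 19977 genes it was given for 7020 in TAN and 2270 in ad-lib. Without ad-lib replicate 1 at 4 AM, 5 of the 8 passed in ad-lib: Ciart, Dbp, Hlf, Nfil3 and Tef. The share of all genes called without that library was not computed, so this count has no background beside it. Amplitudes below are those of a 24-h cosine fitted to log2 CPM, from the mean to the peak, with a standard error (SE) from the spread between libraries of a group.

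**Figure D1:**
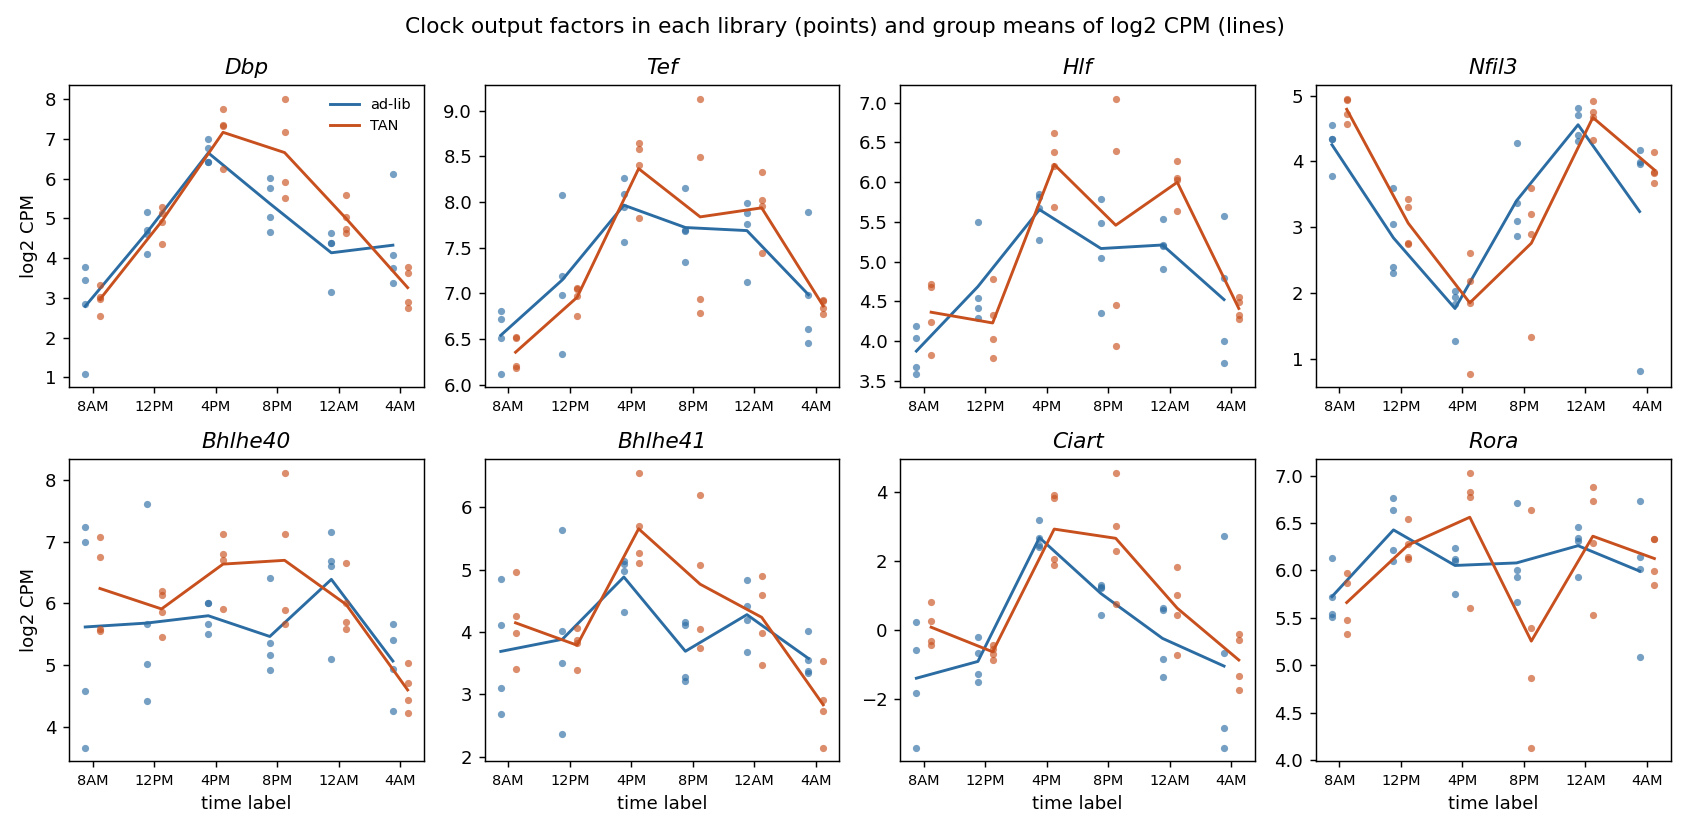
Log2 CPM of the 8 genes (y axis) at the 6 time labels (x axis), with 1 point per library and lines through the means of 4 libraries per diet and time. Dbp, Tef, Hlf, Bhlhe41 and Ciart had their highest group mean at 4 PM in both diets, while Nfil3 had its lowest there.

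Dbp, which had the largest amplitude of the 3 PAR bZIP genes in both diets, had its highest group mean at 4 PM. In ad-lib it was at 2.03, 10.8, 13.5 and 7.08 CPM at 8 AM, 26, 17.1, 35.4 and 24.2 at 12 PM, and 109, 127, 86.1 and 85.8 at 4 PM. It was then at 25, 32.9, 54.8 and 65.2 CPM at 8 PM, 24.7, 8.81, 20.8 and 20.6 at 12 AM, and 69.1, 13.3, 10.3 and 16.8 at 4 AM. The 4 PM libraries were all above every other ad-lib library. In TAN it was at 8.03, 5.69, 7.73 and 9.96 CPM at 8 AM, 20.4, 30.1, 38.8 and 35 at 12 PM, and 75.4, 215, 161 and 164 at 4 PM. At 8 PM it was at 60.6, 45.6, 145 and 259 CPM, at 12 AM at 26.7, 32.8, 47.8 and 24.6, and at 4 AM at 6.61, 12.3, 7.33 and 13.5. High libraries thus occurred at both 4 PM and 8 PM in TAN. The amplitude was 1.42 ± 0.24 (SE, 24 libraries) in ad-lib and 2.20 ± 0.18 in TAN on the log2 scale, a fitted peak over trough of 7.2-fold and 21-fold. Adjusted p was 0.00773 in ad-lib and 2.97e-08 in TAN. A fit of the ad-lib libraries alone did not call it (adjusted p = 0.159), nor did the fit with the TEC covariate described below (0.0583), and over all alternatives that kept every library the ad-lib adjusted p ranged from 1.44e-05 to 0.159. The peak fell at hour 17.7 ± 0.6 of the day in ad-lib and at 18 ± 0.3 in TAN, or 5.7 and 6 by the other labels. Without ad-lib replicate 1 at 4 AM, the ad-lib amplitude was 1.67 ± 0.20.

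Tef and Hlf, the other PAR bZIP genes, followed with smaller swings. Tef was at 112, 105, 69.5 and 91.3 CPM at 8 AM and at 247, 308, 188 and 272 at 4 PM in ad-lib. In TAN it was at 73.7, 91.6, 91.3 and 72.7 CPM at 8 AM and at 226, 384, 340 and 401 at 4 PM. The 4 PM libraries were above the 8 AM libraries in both diets. These times held its highest and lowest group means, so the separation is no test of a rhythm. Its amplitude was 0.66 ± 0.14 in ad-lib (adjusted p = 0.144) and 0.92 ± 0.15 in TAN (adjusted p = 5.87e-05), with the TAN peak at hour 19.4 ± 0.6. Hlf was at 12.7, 18.2, 12 and 16.4 CPM at 8 AM and 51.2, 57.8, 38.5 and 56.1 at 4 PM in ad-lib, and at 18.9, 26.1, 25.5 and 14.1 and at 51.3, 83.3, 73.4 and 98.6 in TAN. Again the 8 AM and 4 PM libraries did not overlap within a diet. For Hlf, 4 PM held the highest group mean in both diets and 8 AM the lowest in ad-lib, so this too is no test. The amplitude of Hlf was 0.73 ± 0.15 in ad-lib (adjusted p = 0.187) and 0.96 ± 0.20 in TAN (adjusted p = 0.000158), with the TAN peak at hour 20 ± 0.8. The unadjusted p of edgeR for the ad-lib rhythm was 0.000317 for Tef and 0.000599 for Hlf. A difference in rhythm between the diets was called for neither (adjusted p = 0.28 for Tef and 0.337 for Hlf). In ad-lib, both passed without replicate 1 at 4 AM, with adjusted p = 0.0207 for Tef and 0.029 for Hlf. Over all alternatives other than leaving out libraries, the ad-lib adjusted p ranged from 0.000589 to 0.515 for Tef and from 0.00233 to 0.515 for Hlf. By the other labels the TAN peaks would be at 7.4 and 8.

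Nfil3, the repressor at D-box elements, ran opposite to Dbp. In ad-lib it was at 23.4, 20.2, 13.6 and 20.2 CPM at 8 AM, 5.18, 4.85, 12.1 and 8.15 at 12 PM, and 3.46, 2.31, 3.99 and 3.74 at 4 PM. It was at 10.2, 19.3, 7.24 and 8.48 CPM at 8 PM, 19.8, 26.1, 27.9 and 21 at 12 AM, and 1.67, 15.9, 15.5 and 18 at 4 AM. The lowest ad-lib value came from replicate 1 at 4 AM, and otherwise the 4 PM libraries were the lowest in ad-lib. In TAN it was at 30.9, 23.6, 30.4 and 26.3 CPM at 8 AM, 10.7, 6.71, 6.59 and 9.8 at 12 PM, and 5.98, 4.43, 3.52 and 1.62 at 4 PM. It was at 2.43, 7.38, 9.09 and 12 CPM at 8 PM, 20, 30.3, 26.8 and 25.4 at 12 AM, and 14.1, 12.7, 14.2 and 17.6 at 4 AM. High values thus stood at 12 AM and 8 AM in TAN, with lower ones at 4 AM between them. The amplitude was 0.95 ± 0.22 in ad-lib (adjusted p = 0.00515), where the peak was at hour 3 ± 0.9, and 1.29 ± 0.16 in TAN (adjusted p = 0.000108), where it was at hour 4.4 ± 0.5. By the other labels these peaks would be at 15 and 16.4. Both fitted peaks lay near 4 AM, where the group means were lower than at 12 AM and 8 AM. At 12 AM, 4 AM and 8 AM the means were 23.7, 12.8 and 19.4 CPM in ad-lib. In TAN they were 25.6, 14.7 and 27.8 CPM. The cosine took up 53.8% of the variance of the group means in ad-lib and 74.8% in TAN. Without ad-lib replicate 1 at 4 AM, the ad-lib amplitude was 1.27 ± 0.13. The ad-lib adjusted p of Nfil3 ranged from 0.00186 to 0.129 over the alternatives that kept every library, with the highest value in a fit of that diet alone. As a description over the 12 group means of log2 CPM, which share libraries and scaling, Nfil3 and Dbp had a Pearson r of -0.802. Without that library it was -0.819. With the other PAR bZIP genes the r of Nfil3 was weaker, -0.52 for Tef and -0.395 for Hlf.

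**Figure D2:**
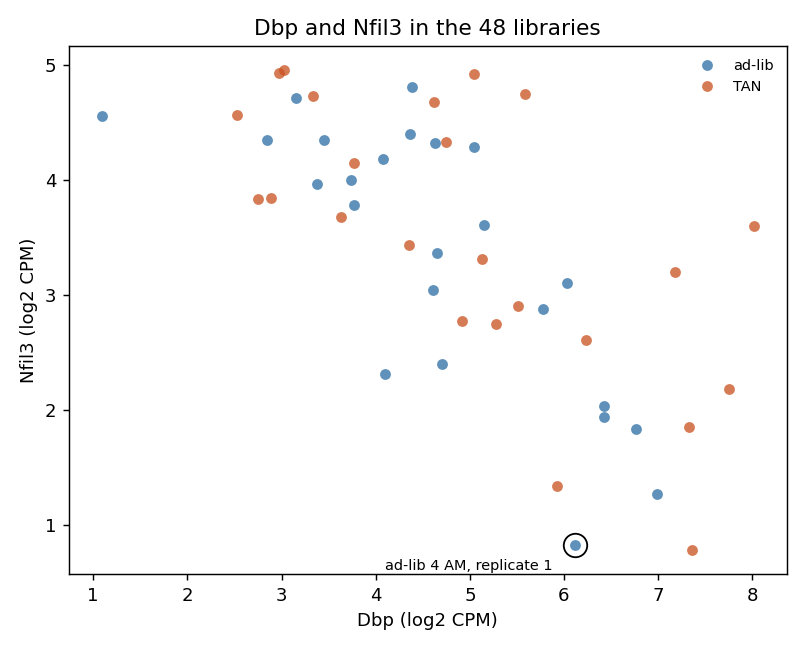
Log2 CPM of Dbp (x axis) and Nfil3 (y axis) in the 48 libraries, 1 point each, coloured by diet. Libraries high in Dbp were mostly low in Nfil3, and the circled library, ad-lib replicate 1 at 4 AM (Dbp 69.1 CPM, Nfil3 1.67 CPM), lay among the low Nfil3 values.

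The repressors Bhlhe40 and Bhlhe41 passed the rhythm test in TAN and not in ad-lib, a contrast that was not itself called. Bhlhe41 was at 34.2, 93.7, 38.4 and 51.8 CPM at 4 PM and at 4.33, 7.45, 6.57 and 11.5 at 4 AM in TAN, and at 33.9, 35.3, 19.8 and 31.3 and at 16.1, 10.1, 11.7 and 10.3 in ad-lib. The 4 PM and 4 AM libraries did not overlap in either diet. These times held its highest and lowest group means, so the separation is no test of a rhythm. Its amplitude was 1.02 ± 0.20 in TAN (adjusted p = 0.00212, peak at hour 17.2 ± 0.8) and 0.39 ± 0.22 in ad-lib (adjusted p = 0.592). Bhlhe40 spread widely within groups: in ad-lib at 8 AM its 4 libraries were at 127, 151, 23.8 and 12.6 CPM, and at 12 PM at 50.7, 21.4, 196 and 32.4. The ad-lib replicate 3 at 12 PM that held 196 CPM also had a muscle marker sum of 2980 CPM, against 37.3 to 105 in the other 3, and a lymphocyte marker sum of 8.06 CPM, against 13.1, 1650 and 1240 in replicates 1, 2 and 4. The part of these in the value was not tested. The amplitude of Bhlhe40 was 0.76 ± 0.19 in TAN (peak at hour 16.8 ± 1) and 0.19 ± 0.31 in ad-lib (adjusted p = 0.973). Its TAN call, with adjusted p = 0.0449, was lost in 16 of the 48 fits that left out 1 library, and over the other alternatives adjusted p ranged from 0.0115 to 0.21. The difference in rhythm between the diets had adjusted p = 0.139 for Bhlhe41 and 0.198 for Bhlhe40. By the other labels the TAN peaks would be at 5.2 and 4.8.

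Ciart, which encodes a repressor of CLOCK and BMAL1, was the least abundant of the 8 genes and had a large swing. In ad-lib it was at 0, 1.09, 0.19 and 0.578 CPM at 8 AM, at 8.96, 6.25, 5.2 and 5.49 at 4 PM, and at 6.49, 0.0471, 0 and 0.544 at 4 AM. In TAN it was at 1.12, 0.644, 1.68 and 0.712 CPM at 8 AM, at 3.6, 14.2, 4.12 and 15 at 4 PM, and at 0.838, 0.724, 0.303 and 0.209 at 4 AM. The 2 libraries at 0 CPM had 0 counts, which allows up to 3 counts at this depth. Its amplitude was 1.85 ± 0.28 in TAN (adjusted p = 0.00171), with the peak at hour 18.5 ± 0.6, or 6.5 by the other labels. In ad-lib it was 1.78 ± 0.41 (adjusted p = 0.315), and 2.14 ± 0.30 (adjusted p = 0.011) without replicate 1 at 4 AM. The ad-lib adjusted p ranged from 0.0737 to 0.954 over the alternatives other than leaving out libraries.

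Rora was the exception, with no 24-h rhythm called in either diet. Its level ranged from 34 to 108 CPM over the 24 ad-lib libraries and from 17.4 to 131 over the 24 TAN libraries. Its amplitude was 0.12 ± 0.11 in ad-lib (adjusted p = 0.945) and 0.11 ± 0.17 in TAN (adjusted p = 0.788). A 12-h rhythm in TAN, with 2.07% of all genes called, was called for 0 of the 8 genes. The edgeR test gave an unadjusted p under 0.05 for 3 of them and for 4784 of all 19977 genes. DESeq2 called 2 of the 8 and 8.42% of all genes. The adjusted p nearest to the threshold were 0.0781 for Nfil3 and 0.0803 for Rora.

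**Figure D3:**
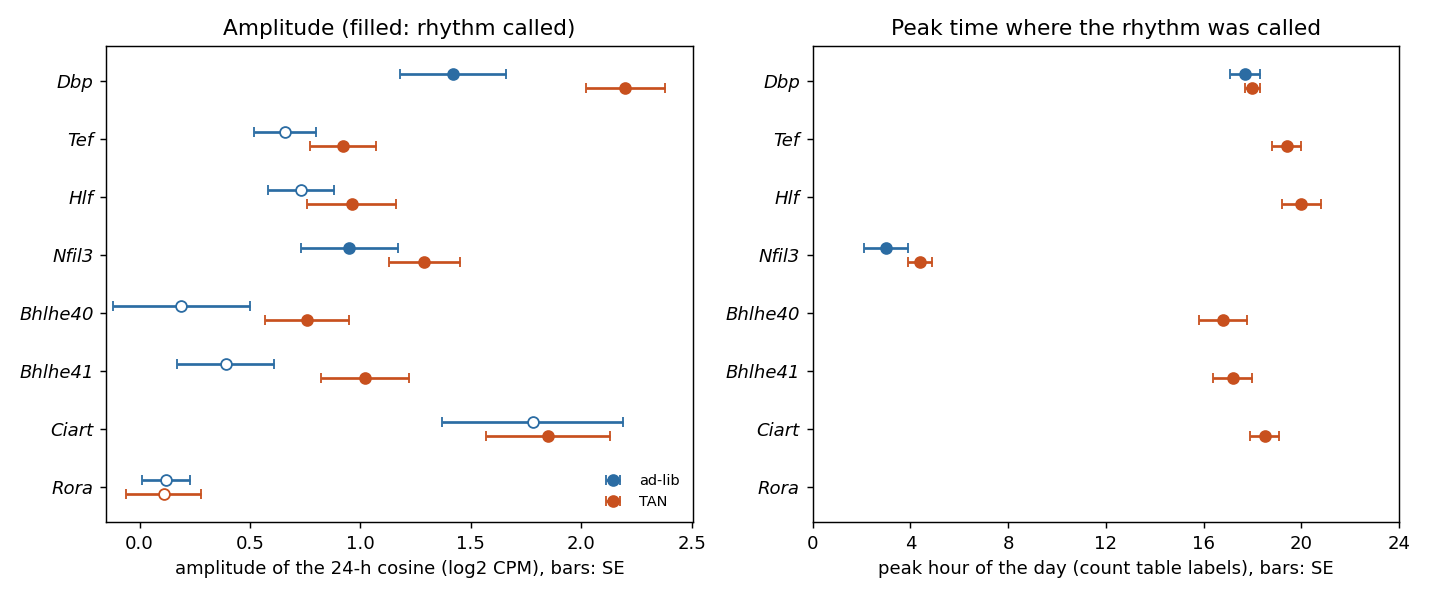
Left, amplitude of the 24-h cosine on the log2 scale with SE (x axis) for the 8 genes (y axis) in ad-lib and TAN, 24 libraries each, filled where the rhythm was called. Right, the fitted peak hour by the count table's labels with SE, drawn only where the rhythm was called. The fitted peaks of 6 genes fell between hours 16.8 and 20. Those of Nfil3 fell at hours 3 and 4.4, between higher group means at 12 AM and 8 AM.

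Between the diets, the 24-h rhythm differed for 1 of the 8 genes, Dbp. The difference in rhythm was called for 20.2% of all genes, so that the share among the 8 was below the background. The amplitude of Dbp was 0.77 ± 0.30 higher in TAN than in ad-lib on the log2 scale (adjusted p = 0.0211), and the peak differed by 0.3 ± 0.7 h. The call held in 47 of the 48 fits that left out 1 library, and without ad-lib replicate 1 at 4 AM the amplitudes differed by 0.53 ± 0.28, with adjusted p = 0.0361. Without TAN replicate 4 at 8 PM it was lost, with adjusted p = 0.0522. Over the other alternatives adjusted p ranged from 0.00566 to 0.517, with the highest value when a covariate was fitted for the fraction of reads on TEC loci (transcripts still to be experimentally verified). With that covariate a difference in rhythm was called for 0 of all 19977 genes. For the other 6 genes called in TAN, the amplitude in TAN minus that in ad-lib was 0.07 ± 0.49 (Ciart) to 0.63 ± 0.30 (Bhlhe41), and no difference in rhythm was called. For Ciart the sign turned without ad-lib replicate 1 at 4 AM (-0.29 ± 0.41) and with a prior count of 0.5 (-0.25). For Nfil3 the difference was 0.33 ± 0.28, and 0.01 ± 0.21 without that library.

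At single times, TAN and ad-lib differed in 1 of the 48 pairs of gene and time. This was Dbp at 8 PM, where 11.7% of all genes were called, a share near that of 1 in 8. Dbp averaged 128 ± 97.9 CPM in TAN and 44.5 ± 18.7 in ad-lib (SD, n = 4), a log2 fold change of 1.52 ± 0.50 (SE, adjusted p = 0.0416). The libraries of the 2 diets overlapped, since TAN replicates 1 and 2 were at 60.6 and 45.6 CPM and ad-lib replicates 3 and 4 at 54.8 and 65.2. The call was lost without ad-lib replicate 1, 2 or 3 and without TAN replicate 3 or 4, that is in 5 of 8 fits that left out 1 library of that time. Without TAN replicate 4, which had 259 CPM, the log2 fold change was 0.92. With the replicate number as a block it was 1.48 and not called.

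Marker sums and the TEC share also differed among the 8 PM libraries. The TEC share of counts was 0.0294 to 0.0394% in TAN and 0.0807 to 0.104% in ad-lib, and the sum of 5 endothelial markers was 149 to 282 CPM in TAN and 350 to 518 in ad-lib, with no overlap in either. The part of the endothelial markers in the Dbp value was not tested. TAN replicates 3 and 4 at 8 PM, the highest in Dbp, had adipocyte marker sums of 45800 and 67900 CPM and lymphocyte marker sums of 832 and 34.7. TAN replicates 1 and 2 had adipocyte sums of 13400 and 8830 CPM and lymphocyte sums of 1830 and 1980. In ad-lib the sums were 13200 to 38300 for adipocytes and 541 to 1790 for lymphocytes. With the mean log2 CPM of the lymphocyte markers as a covariate, the log2 fold change of Dbp at 8 PM was 1.46 (adjusted p = 0.0376). With that of the adipocyte markers it was 1.38 (adjusted p = 0.0409). With the TEC share as a covariate it was 1.92 and not called (adjusted p = 0.121), in a fit that called 0.32% of all genes at 8 PM. Over all alternatives other than leaving out libraries, its adjusted p ranged from 0.0163 to 0.198.

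The other 7 genes were not called at 8 PM by edgeR over all libraries and the 19977 genes. Ciart had the largest log2 fold change, 2.20 ± 0.92 (adjusted p = 0.106), with 4.86, 1.6, 8 and 23.5 CPM in TAN and 2.31, 1.27, 2.26 and 2.39 in ad-lib. Bhlhe40 had 1.46 ± 0.60 (adjusted p = 0.103), with 50.5, 59.3, 139 and 278 CPM in TAN and 40.9, 85.3, 35.9 and 30.1 in ad-lib. Bhlhe41 had 1.35 ± 0.51 (adjusted p = 0.0717), with 16.5, 13.2, 33.6 and 73.2 CPM in TAN and 9.62, 17.8, 9.2 and 17.1 in ad-lib. DESeq2 called Bhlhe41 (1.37, adjusted p = 0.0377), as did edgeR over genes with 10 counts in every library (1.36, adjusted p = 0.0486), and its adjusted p ranged from 0.0377 to 0.236 over the alternatives that kept every library. Without TAN replicate 2 it was also called (adjusted p = 0.0485). In Ciart, Bhlhe40 and Bhlhe41 the groups overlapped and TAN replicate 4 was the highest library. Nfil3 had -0.55 ± 0.42 (adjusted p = 0.421) and Rora -0.58 ± 0.34 (adjusted p = 0.27). Without TAN replicate 4, log2 fold changes were -1.25 for Rora, which was then called (adjusted p = 0.00866), -0.84 for Nfil3, 1.23 for Ciart, 0.80 for Bhlhe40 and 0.66 for Bhlhe41. For Hlf and Tef the values were 0.73 and 0.42, and 0.09 and -0.12 without that library. With the mean log2 CPM of the lymphocyte markers as a covariate, Rora was at -0.96 (adjusted p = 0.00478). With that of the adipocyte markers it was at -0.75 (adjusted p = 0.0167). With every library, the median log2 fold change of the 8 genes was 1.04, against -0.10 over all genes. Without TAN replicate 4 the log2 fold change of each of the 8 genes was lower, so this median leans on that library.

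**Figure D4:**
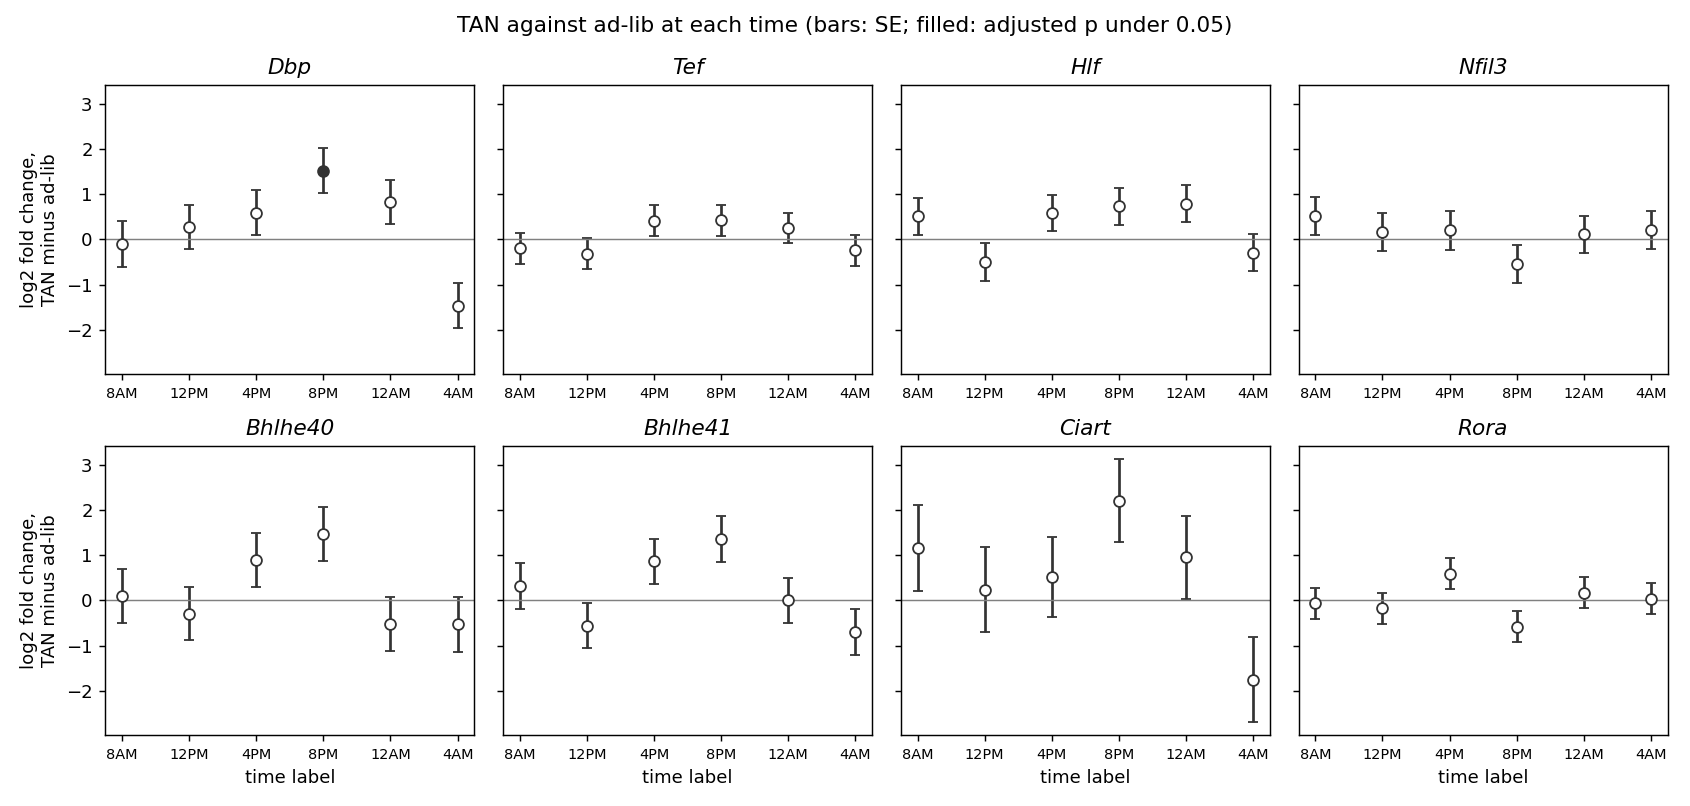
Log2 fold change of TAN against ad-lib with SE (y axis) at the 6 time labels (x axis) for the 8 genes, filled where adjusted p was under 0.05. The only filled point is Dbp at 8 PM, at 1.52.

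At the other times 0 of the 8 genes were called by edgeR. At 4 PM, with 15.3% of all genes called, all 8 log2 fold changes were above 0, from 0.20 (Nfil3) to 0.89 (Bhlhe40), and the smallest adjusted p was 0.221. The median of the 8 was 0.59, against -0.09 over all genes. A fit of the 4 PM libraries alone called Bhlhe40, at 0.83 (adjusted p = 0.0298). Several marker sums did not overlap at 4 PM. The lymphocyte sum was 9.46 to 286 CPM in TAN and 908 to 1580 in ad-lib, the adipocyte sum 39400 to 67400 and 17600 to 25500, and the skeletal muscle sum 67.8 to 95.3 and 36.2 to 62.1. The share of all genes called at 4 PM was 0% with the lymphocyte covariate, 0.17% with the adipocyte covariate, 0.275% with the TEC covariate and 17.2% with the skeletal muscle covariate. At 8 AM, 0.015% of all genes were called, at 12 PM 0.0901%, at 12 AM 0.15% and at 4 AM 0%. Of the 8 genes, 0 had an unadjusted p under 0.05 at 8 AM, 12 PM, 4 PM or 12 AM. In that order of times, 1314, 1473, 6636 and 3492 of all 19977 genes had one by edgeR. DESeq2 and limma voom also called 0 of the 8 at these times and at 4 AM.

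The TAN and ad-lib libraries did not overlap in 2 pairs of gene and time. Nfil3 at 8 AM was at 23.6 to 30.9 CPM in TAN and 13.6 to 23.4 in ad-lib, at a time when 3.07% of all genes did not overlap. Hlf at 12 AM was at 49.8 to 77 CPM in TAN and 29.9 to 46.1 in ad-lib, at a time when 9.13% did not overlap. Their log2 fold changes were 0.52 ± 0.42 (adjusted p = 0.878) and 0.79 ± 0.41 (adjusted p = 0.306). At 4 AM, Dbp had a log2 fold change of -1.46 ± 0.50 with an unadjusted p of 0.00592 (adjusted p = 1), and without ad-lib replicate 1 it was -0.45.

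Averaged over the 6 times, 0 of the 8 genes were called, as against 5.42% of all genes. An unadjusted p under 0.05 was found for 0 of the 8 and for 4289 of all 19977 genes. DESeq2 and limma voom also called 0. The mean log2 fold changes ranged from 0 (Rora) to 0.55 (Ciart), with a median of 0.20. Without ad-lib replicate 1 at 4 AM, Ciart was at 1.07 (adjusted p = 0.0607), Dbp moved from 0.27 to 0.45 and Nfil3 from 0.11 to 0.05, and without ad-lib replicate 3 at 12 PM Bhlhe40 moved from 0.18 to 0.37 and Bhlhe41 from 0.21 to 0.37. None was called. The TAN effect differed between the times for 8.98% of all genes and for 0 of the 8. Dbp had adjusted p = 0.0504, and 0.131 without ad-lib replicate 1 at 4 AM. An unadjusted p under 0.05 was found for 2 of the 8 and for 6036 of all 19977 genes. DESeq2 called Dbp, at adjusted p = 0.00804, in a fit that called 20% of all genes. With limma voom 0 of the 8 and 22.2% of all genes were called. Over the alternatives other than leaving out libraries, the adjusted p of Dbp ranged from 0.00804 to 0.358.

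The rest of the clock was described by counts. Of 11 core clock genes, 10 were called for a 24-h rhythm in TAN and 5 in ad-lib. Of all genes, 19.8% were called in TAN and 0.0801% in ad-lib, the background for the lists below too. In ad-lib 9 of the 11 had an unadjusted p under 0.05, as had 2270 of all 19977 genes. The rhythm differed between the diets for 4 of the 11, Arntl, Clock, Npas2 and Nr1d1, and for 20.2% of all genes. At 8 PM, 3 of the 11 fell in TAN (Arntl, Clock and Npas2) and 0 rose. Of all 19977 genes, 1581 were called lower in TAN at that time and 752 higher. Of 9 clock controlled genes, such as Usp2 and Wee1, 7 were called for a 24-h rhythm in TAN and 0 in ad-lib, where 4 had an unadjusted p under 0.05. Of 7 regulators of clock protein stability and activity, edgeR called 0 in either diet. An unadjusted p under 0.05 was given for 0 of the 7 in ad-lib and for 1 in TAN. Of all 19977 genes, 7020 had one in TAN. Of 6 genes known as PAR bZIP targets, 4 passed the filter. Por, which encodes the electron donor of cytochrome P450 enzymes, was the 1 of these called in TAN (adjusted p = 0.0171). A share of 1 in 4 is near the 19.8% of all genes called in TAN. In ad-lib 0 of the 4 were called, and 0 had an unadjusted p under 0.05.

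The genes most like each of the 8 over the 12 group means of log2 CPM were taken among genes with a mean of at least 1 CPM, by Pearson r, as a description with no test. They included other clock genes for some members. For Dbp they were Nr1d2 (r = 0.948), Slc5a6 (0.925) and Ciart (0.877), and for Ciart they were Slc5a6 (0.898), Rere (0.884) and Dbp (0.877). Tef and Hlf were nearest to each other (0.949), followed for Tef by Gstt2 (0.897) and Angptl2 (0.89) and for Hlf by Crtac1 (0.945) and Bhlhb9 (0.893). Bhlhe40 and Bhlhe41 had r = 0.834 with each other, and Bag3 was the nearest gene to both, at 0.845 and 0.889. The third gene was Inafm2 (0.785) for Bhlhe40, while Slc5a6 (0.873) came second for Bhlhe41. Nfil3 was nearest to Hoxb6 (0.893), Nabp1 (0.888) and Klhl25 (0.875), and Rora to Pcmtd1 (0.962), Aspn (0.958) and Iars2 (0.952).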

How the data were processed

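RNA of 48 libraries was selected by poly-A and sequenced on Illumina instruments with paired reads. The counts deposited by the authors are raw, 1 value per gene and library, with no normalization. The submitters' processing notes name TopHat 1.3.3 (an aligner), DESeq2 1.20.0, limma and edgeR, with no order. The counting tool and strand setting are not given in the sources used here. Gene coordinates are those of GRCm38. The deposited group means in FPKM were not used. Diet, time and replicate came from the labels, with 0 columns of sample values unused and 0 identical libraries. Where animals are not traced further, p-values measure the spread between these libraries.

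Genes were kept by filterByExpr (minimum count 10), scaled with TMM and tested in edgeR 4.0.16 (R 4.3.3) by 1 robust quasi-likelihood fit of the 12 groups. Contrasts were TAN against ad-lib at each time, their mean, their difference between times, and 24-h and 12-h cosine and sine terms. P-values were adjusted by Benjamini-Hochberg over all 19977 genes of a comparison. CPM used TMM factors, and log2 CPM a prior count of 2. Amplitude and peak came from least squares, with SE from the spread within groups (18 residual degrees of freedom). Promoter letters are from RefSeq. Limits on a count of 0 cover counting error only. All 8 genes were described in full, other lists by counts, and for each gene the 3 most alike by Pearson r. The genes, lists and tests were chosen with earlier results of these data known. The fits were tested on simulated data.

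Replicate numbers did not pair libraries: 5 of 24 same-number pairs of TAN and ad-lib libraries had a residual correlation over 0.1. Alternatives were no filter, 10 counts in every library, RLE factors, DESeq2 1.42.0, limma voom 3.58.1, mitochondrially encoded genes left out, a replicate block, marker and TEC covariates, separate fits, a fold threshold, another prior count, and libraries left out. The adipocyte covariate and the amplitudes and the Dbp and Nfil3 correlation without ad-lib replicate 1 at 4 AM were added after seeing the data.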

Additional observations from a re-analysis of the deposited data

Results flagged for a closer look

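Of 96 sets of 4 libraries (8 genes in 12 groups), 6 had a highest or lowest library far from the other 3 by Dixon's test at the 95% level, and chance alone flags about 1 in 20 such sets. Ad-lib replicate 1 at 4 AM gave 3 of them: Dbp at 69.1 CPM (others 10.3 to 16.8), Nfil3 at 1.67 CPM (15.5 to 18) and Ciart at 6.49 CPM (0 to 0.544). Its adipocyte marker sum was 19500 CPM, against 28100 to 36200 in the other 3 libraries. Ad-lib replicate 3 at 12 PM gave 2, Hlf at 45.1 CPM (others 19.5 to 23.3) and Bhlhe40 at 196 CPM (21.4 to 50.7). Ad-lib replicate 2 at 8 PM had Ciart at 1.27 CPM (2.26 to 2.39).

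The 24-h rhythm of Dbp differed between the diets by a test of the difference itself (adjusted p = 0.0211, amplitude 1.42 in ad-lib and 2.20 in TAN).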

How the results depend on the processing

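The number of the 8 genes called for a 24-h rhythm in TAN was 7, and 6 or 7 under each of the 12 alternatives that kept all libraries, 5 to 6 without each replicate number and 6 to 7 without single libraries. In ad-lib it was 2, but 3 with DESeq2 (Dbp, Tef and Hlf), 4 with the lymphocyte or adipocyte covariate and 1 with the TEC covariate. It was 0 in a fit of that diet alone and 0 to 2 without each replicate number. Without single libraries it was 2 to 5, the 5 being without ad-lib replicate 1 at 4 AM. The share of all genes called in ad-lib was 0.0801% in the main fit, 0.606% with DESeq2 and 0.0451% with the TEC covariate. It was 0.275% with the lymphocyte covariate and 0.521% with the adipocyte covariate. That share was not computed without single libraries. The difference between diets was called for 1 gene, and for 0 to 1 without replicate numbers or single libraries. With limma voom it was called for 0 of the 8 and for 30.6% of all genes. With the TEC covariate it was called for 0 of the 8 and for 0 of all 19977 genes. With the lymphocyte covariate the 1 gene was Rora (adjusted p = 0.0172), and Dbp was lost (0.055). For a 12-h rhythm in TAN the count was 0, but 2 with 10 counts in every library or DESeq2, 1 with limma voom or the adipocyte covariate, 0 to 1 without replicate numbers and 0 to 2 without single libraries. The shares of all genes called in the named fits were 7.61%, 8.42%, 6.08% and 2.26%, in that order.

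Of the 48 pairs of gene and time, 1 was called. It was 0 without a filter, with the replicate block or with the TEC covariate. It was 2 with 10 counts in every library, DESeq2, or the lymphocyte or adipocyte covariate. Without replicate numbers it was 0 to 1, and without single libraries 0 to 2. Of all genes, 3.87% were called at 8 PM without a filter, 10.7% with the block and 0.32% with the TEC covariate. That share was 19.9% with 10 counts in every library, 16% with DESeq2, 19.7% with the lymphocyte covariate and 24.9% with the adipocyte covariate. The TAN effect between times was called for 0 genes, and for 1 with 10 counts in every library, RLE factors or DESeq2. In these fits 20.4%, 10.6% and 20% of all genes were called, in that order. Without single libraries it was called for 0 to 1. The mean effect was called for 0 under every alternative. The replicate block changed no other count. With the TEC covariate the share of all genes called for a rhythm in TAN was 1.06%. The causes were not tested. Peak hours moved by 12 h under the other labels. DESeq2 gave no adjusted p for Nfil3, Bhlhe41 and Ciart in the ad-lib rhythm test. Ciart, with 0 counts in 2 libraries, was limited by depth and could not be tested with 10 counts in every library.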
